A study of Rattus norvegicus with 16 samples.

Results

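The cadherins and protocadherins are calcium-dependent adhesion molecules of the cell surface. Their RNA was measured by sequencing in frontal cortex from male rats of the Sprague Dawley strain. Members were taken by symbol from the deposited expression table, as Cdh followed by a number or any symbol that starts with Pcdh. This gave 68 symbols on 44 loci. Where a symbol had several loci, the locus with the highest mean was kept, and a locus that merges several clustered protocadherins was counted once. The result was 39 member loci of 28168 in the table, 19 cadherins and 20 protocadherins, with 5 lesser loci set aside. Of the 39, 31 had a mean of at least 1 FPKM (fragments scaled to transcript length and to the mapped fragments of the library) and were tested.

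The 16 libraries, prepared from poly-A selected RNA, form 4 groups of 4. All rats were 11 weeks old at the start and were fed for 7 weeks. Chow rats and HF rats (fed high fat) received no injections. HF_PBS rats, also fed high fat, received intraperitoneal injections of phosphate-buffered saline (PBS) over 10 days. For HF_5AzaD rats, fed high fat as well, the injected PBS carried 5-AzaD, which is 5-aza-2′-deoxycytidine, a cytidine analogue that blocks DNA methyltransferases. Sample titles attach the letters HFD to the PBS animals while the design text uses them for the diet alone, and groups here follow the treatment stated for each sample. If the letters in the titles named the diet alone, HF and HF_PBS would change places in every comparison below. No source states that the libraries of a group are separate animals, so p-values measure the spread between libraries, which may be technical. A batch of library preparation or sequencing that followed the injections cannot be told apart from them.

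Classical cadherins, of type I and type II, bind their like on the neighbouring cell and hold on to actin through catenins. In the developing and adult brain their combinations mark areas, layers and nuclei. Non-clustered protocadherins of the delta families adhere more weakly and recruit actin regulators, among them the WAVE complex. Clustered protocadherins lie in 3 gene arrays, alpha, beta and gamma. Each neuron transcribes its own small set of them, from promoters that are chosen with the help of CTCF and cohesin and are kept silent by DNA methylation, and this gives a neuron its surface identity.

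Promoter sequence is shown for 4 members because the agent given acts on enzymes that methylate cytosine before guanine, and these 4 are examples of the calls described below: Cdh22, Cdh20 and Cdh7 among the members that fell, and Pcdh15, which rose. Other called members are not shown. Cdh22 was called only in HF_PBS, which received no 5-AzaD, and 0 members were called in HF_5AzaD against HF_PBS. The 250 bases before each start are from RefSeq on build GRCr8, 5′ to 3′ on the gene's strand, with each CG in capitals. CG reads the same on both strands. DNA methylation was not analysed here, so the letters say only where a methyl group could be placed. Cdh22 at chr3:174389893-174390142 (minus strand), Cdh20 at chr13:21515017-21515266 (plus), Cdh7 at chr13:27197332-27197581 (plus) and Pcdh15 at chr20:14824799-14825048 (minus) read:
Cdh22: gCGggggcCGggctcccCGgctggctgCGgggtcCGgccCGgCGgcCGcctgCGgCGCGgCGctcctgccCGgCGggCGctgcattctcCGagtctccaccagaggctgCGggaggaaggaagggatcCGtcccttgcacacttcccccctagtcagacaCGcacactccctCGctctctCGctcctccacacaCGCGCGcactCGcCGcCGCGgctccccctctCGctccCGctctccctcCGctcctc
Cdh20: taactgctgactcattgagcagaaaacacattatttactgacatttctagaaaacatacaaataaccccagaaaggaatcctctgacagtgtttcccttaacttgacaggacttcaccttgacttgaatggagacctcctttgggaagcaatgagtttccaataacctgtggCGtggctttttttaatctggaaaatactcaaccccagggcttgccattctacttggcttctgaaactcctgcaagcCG
Cdh7: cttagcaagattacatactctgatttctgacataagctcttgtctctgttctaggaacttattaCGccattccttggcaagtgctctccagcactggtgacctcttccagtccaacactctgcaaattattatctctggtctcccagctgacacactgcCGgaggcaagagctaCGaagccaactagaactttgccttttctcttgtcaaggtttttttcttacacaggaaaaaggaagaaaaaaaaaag
Pcdh15: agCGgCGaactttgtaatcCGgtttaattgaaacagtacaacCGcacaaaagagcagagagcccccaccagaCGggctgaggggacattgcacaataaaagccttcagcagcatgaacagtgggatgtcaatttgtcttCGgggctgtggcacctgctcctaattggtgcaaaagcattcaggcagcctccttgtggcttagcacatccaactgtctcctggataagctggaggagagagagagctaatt

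The Cdh22 window holds 31 CG, a number that 4.88% of the 27456 rat promoters in that table reach. Cdh20 has 2 CG, which 82.4% of promoters reach, Cdh7 has 3 (72.4%) and Pcdh15 has 6 (51.7%). These 4 were chosen after their values were seen. Over the 20 tested members with a matching entry, the median was 6 CG with a range of 0 to 31, and the median of all promoters was also 6. In gene order on the same build, Cdh7 lies next to Cdh19, with 0 protein-coding genes between them, and 25 such genes separate Cdh20 from Cdh7. Cdh11 lies next to Cdh5 and has 2 genes between it and Cdh8, its companion in the comparison of HF_5AzaD with HF.

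Read counts were not used here and absolute depth is unknown. From the steps between the lowest FPKM values, depth relative to the deepest library (chow 2) was 38.7% to 100% in chow, 30.1% to 36.4% in HF, 32.5% to 40.0% in HF_PBS and 34.5% to 42.5% in HF_5AzaD. The tissue was checked against 10 markers of cortical excitatory neurons, 9 of them in the table and none at 0. Their summed level was 4214 to 4840 FPKM in chow, 2494 to 5169 in HF, 1390 to 4384 in HF_PBS and 2869 to 5292 in HF_5AzaD. In 5 libraries (HF 8, HF_PBS 3, HF_PBS 4, HF_5AzaD 5 and HF_5AzaD 7) the mean log2 level of these markers lay below the mean of all 16. All 4 chow libraries lay above it. Of 10 markers of striatum, 9 were in the table, and they summed to 248.8 to 399 FPKM in chow, 223 to 1361 in HF, 251 to 1030 in HF_PBS and 219 to 367 in HF_5AzaD. The 10 myelin markers summed to 3676 to 5620 FPKM in chow, 3282 to 5252 in HF, 3443 to 13792 in HF_PBS and 2363 to 7263 in HF_5AzaD. The 7 markers of upper cortical layers summed to 353 to 428 FPKM in chow, 295 to 370 in HF, 178 to 351 in HF_PBS and 253 to 406 in HF_5AzaD. The 9 markers of deep cortical layers summed to 118 to 168 FPKM in chow, 131 to 186 in HF, 95.0 to 174 in HF_PBS and 80.6 to 142 in HF_5AzaD. The 7 astrocyte markers summed to 1018 to 1148 FPKM in chow, 953 to 1442 in HF, 1217 to 1398 in HF_PBS and 1099 to 1274 in HF_5AzaD, and 3 of 6 tested were called higher in HF_PBS against chow, where the summed levels did not overlap. The 8 microglial markers summed to 133 to 143 FPKM in chow, 150.1 to 197 in HF, 131 to 302 in HF_PBS and 150.4 to 267 in HF_5AzaD, and 2 of 8 were called higher in each injected group against chow. Every HF and HF_5AzaD library lay above every chow library in that sum. In HF_PBS against chow, 2 of 9 tested excitatory and 3 of 7 upper layer markers were called lower. There 2 of 9 striatal and 1 of 10 myelin markers were called higher. In HF_5AzaD against chow 1 upper layer marker was called lower. Over all loci, 12.4% were called higher and 15.7% lower in HF_PBS against chow, and 7.18% and 9.11% in HF_5AzaD against chow. The part of tissue composition in the results below was not tested. In bulk tissue, fewer cells of a type and less RNA per cell cannot be told apart.

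The gamma protocadherin locus, which merges 13 symbols, was the most abundant member, at 146 FPKM over the 16 libraries. It held 29.4% of the summed member level of 496 FPKM. Pcdh7 (42.8 FPKM) and Pcdh9 (38.7 FPKM), both delta-1 protocadherins, followed, with Cdh13 (38.6 FPKM), the cadherin that is anchored by a lipid and binds adiponectin. The alpha locus, which merges 15 symbols, stood at 36.4 FPKM. These 5 loci made up 61.0% of the summed level, and 12 members reached a mean of 10 FPKM. By family, type II cadherins held 16.4% and delta-1 protocadherins 17.1% of the sum, against 6.17% for type I cadherins and 4.48% for the beta protocadherins. FPKM of a merged locus depends on the transcript models behind it, and reads of near-identical clustered genes may be split among them in an uncertain way.

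**Figure D1:**
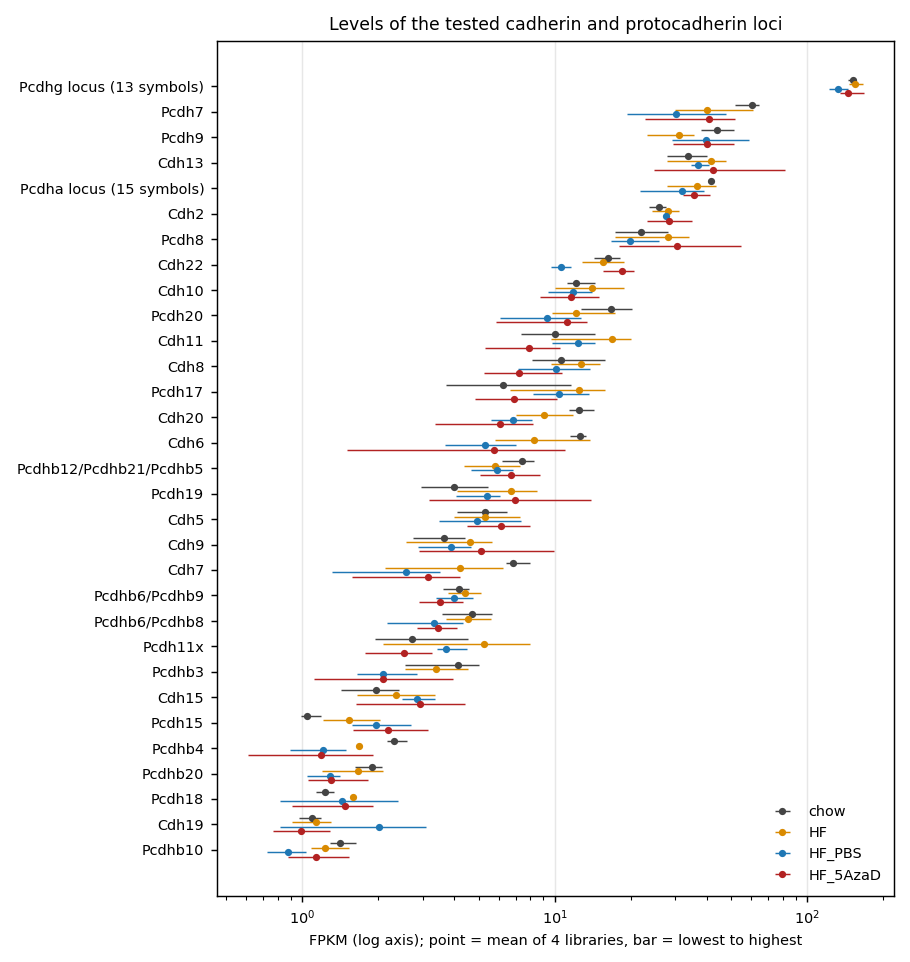
Level of each of the 31 tested member loci in FPKM on a log axis, with the mean of the 4 libraries of each group as a point and the lowest to highest library as a bar, coloured by group. The gamma protocadherin locus (mean 146 FPKM) stands above all others, and Pcdhb10 (mean 1.16 FPKM) is the lowest.

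The 8 loci under that limit were Pcdhb2 (mean 0.553 FPKM), Cdh1 (0.315), Cdh3 (0.307), Pcdh12 (0.292), Cdh23 (0.251), Cdh26 (0.0424), Cdh17 (0.00662) and Cdh16 (0.00201). The members just above it were Pcdhb10 at 1.16 and Cdh19 at 1.31 FPKM. Cdh1, the epithelial cadherin, was therefore near the floor in this tissue, while Cdh2, the neural cadherin, stood at 27.5 FPKM. Cdh23, the partner of Pcdh15 in the tip links of hair cells, was low as well. Pcdhb2 was at 0.863 to 1.15 FPKM in chow and at 0.369 to 1.33 in HF. It lay between 0.105 and 0.315 FPKM in HF_PBS and between 0.0493 and 0.490 in HF_5AzaD, so that both injected groups were below every chow library. It was not tested. Cdh4, Cdh12, Cdh18, Cdh24, Pcdh1 and Pcdh10 are not analysed here.

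Differences between groups were tested with limma on log2(FPKM + 0.5) over all 14824 tested loci, with Benjamini-Hochberg adjustment and a threshold of 0.05. Differences are given on that scale, which understates changes of low genes. In HF_PBS against chow, 9 of 31 members passed, against 28.2% of all loci tested. Of these, 1 was higher (background 12.4%) and 8 were lower (background 15.7%). In HF_5AzaD against chow 6 passed (background 16.3%), 1 higher (background 7.18%) and 5 lower (background 9.11%). Both comparisons share the chow libraries. The members' share in either direction, 29.0% and 19.4%, was near that of all loci. Their lower calls made up 25.8% and 16.1% of the members tested and their higher calls 3.23% in each, so the calls leaned to lower values more than those of all loci did, a lean that was not tested.

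Against HF, 1 member passed in HF_PBS, a lower one (background 23.9% in either direction, 10.7% higher and 13.2% lower). In HF_5AzaD against HF 2 passed, both lower (background 14.2%, with 6.61% higher and 7.64% lower). Both counts lie below the background, and both comparisons share the HF libraries. The diet alone gave 0 calls by limma, with 0% of all loci called. There 5 members had an unadjusted p under 0.05 (background 6.88%) and 5 had groups that did not overlap (background 6.95%). HF_5AzaD against HF_PBS also gave 0 calls, again with 0% of all loci. In that comparison 3 members had an unadjusted p under 0.05 (background 7.42%) and 2 had groups apart (background 2.4%). Over all 4 groups, 6 of 31 members passed the F test, against 26.5% of loci.

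Members with fully separated groups numbered 11 in HF_PBS against chow (background 33.3%) and 5 in HF_5AzaD against chow (background 27.2%). There were 4 in HF_PBS against HF (background 21.2%) and 0 in HF_5AzaD against HF (background 17.7%). The median member difference was -0.14 in HF_PBS against chow and -0.15 in HF_5AzaD against chow, with medians of 0.01 and 0.00 over all loci. In HF_PBS against HF it was -0.26, with 26 of 31 members negative, against 0.01 over all loci, of which 7201 of 14824 were negative. For the diet alone the median was 0.02, against -0.01 over all loci.

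**Figure D2:**
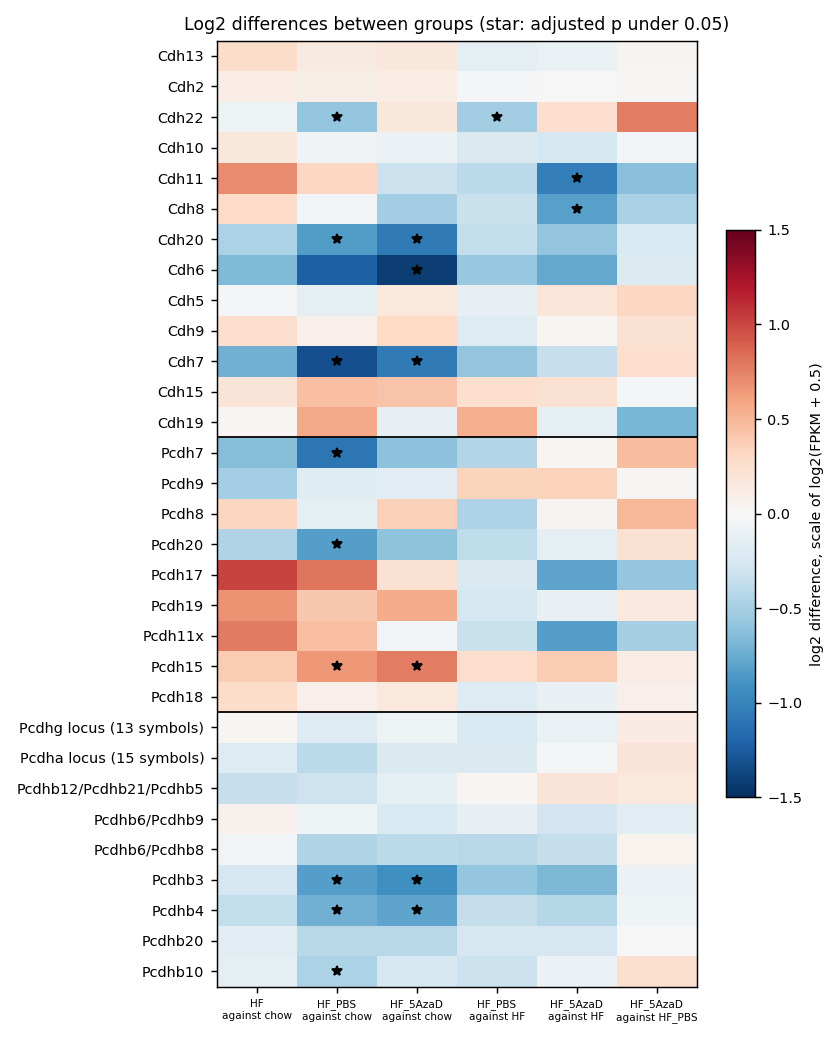
Difference of each tested member in the 6 comparisons, as colour on the scale of log2(FPKM + 0.5), with rows for members, columns for comparisons and a star at an adjusted p under 0.05. Calls are confined to the 4 comparisons of an injected with an uninjected group, and most of them lie below 0.

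Without the 5 libraries of low excitatory markers, a set chosen after seeing the data, 1 lower member passed in HF_PBS against chow, where 4.70% of all loci were called lower. In the other 3 comparisons with calls, 0 members then passed. That fit lacks HF 8, HF_PBS 3 and 4, and HF_5AzaD 5 and 7, so the injected groups lose the most samples. Calls over all loci shrank too, to 1.64% lower and 0.654% higher in HF_5AzaD against chow. For the comparisons with HF the share of all loci in that fit is not given here, so their 0 stands without a background. Each member's call below is given with its value in that fit.

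Cdh22 is a type II cadherin found mainly in brain and pituitary. Its level was 18.1, 16.5, 16.1 and 14.3 FPKM in chow libraries 1 to 4. In HF libraries 5 to 8 it was 12.8, 18.7, 15.8 and 14.6 FPKM. In HF_PBS 1 to 4 it was 11.6, 11.2, 9.62 and 9.97 FPKM. All HF_PBS libraries were thus below every library of chow and of HF. In HF_5AzaD 3, 5, 6 and 7 the level was 17.4, 20.5, 15.5 and 20.2 FPKM, above every HF_PBS library. The difference of HF_PBS from chow was -0.60 (10.6 ± 0.943 against 16.3 ± 1.56 FPKM, SD, n = 4 each; SE 0.121, limma adjusted p = 0.00507). From HF it was -0.52 (HF 15.5 ± 2.48 FPKM, SE 0.121, limma adjusted p = 0.00934). Both calls held when any single library was left out. Without the 5 libraries the differences were -0.49 (adjusted p = 0.0668) and -0.44 (adjusted p = 0.112), and over all alternatives the adjusted p ran from 0.00173 to 0.0668 and from 0.00714 to 0.112. HF_5AzaD exceeded HF_PBS by 0.76 (18.4 ± 2.38 FPKM, 95% interval 0.51 to 1.02), with an unadjusted p of 1.6e-05 but an adjusted p of 0.237, so it did not pass. HF_5AzaD differed from chow by 0.17 (95% interval -0.09 to 0.43, adjusted p = 0.328).

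Cdh20 and Cdh7 are type II cadherins that lie on the same chromosome and mark restricted sets of neurons. Cdh20 was at 12.2, 12.2, 14.3 and 11.4 FPKM in chow 1 to 4 and at 7.22, 10.2, 11.8 and 7.02 in HF 5 to 8. It was at 8.12, 6.94, 6.53 and 5.61 FPKM in HF_PBS 1 to 4 and at 8.17, 3.34, 8.23 and 4.60 in HF_5AzaD 3, 5, 6 and 7. Every injected library lay below every chow library, and HF overlapped with both. The difference from chow was -0.84 in HF_PBS (SE 0.239, adjusted p = 0.0200) and -1.06 in HF_5AzaD (adjusted p = 0.0156). The first call was lost without chow 3 (adjusted p = 0.0550) or HF_PBS 4 (0.0670), and the second without HF_5AzaD 7 (0.0601). In the fit without those 5 libraries, the values were -0.70 (adjusted p = 0.0450, still past the test) and -0.58 (adjusted p = 0.0891). The adjusted p ran from 0.00545 to 0.0670 and from 0.00458 to 0.0891 over the alternatives.

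Cdh7 was at 7.99, 6.43, 6.57 and 6.41 FPKM in chow 1 to 4. In HF 5 to 8 it was at 2.13, 6.21, 3.73 and 4.71 FPKM, below all chow libraries, though the diet difference of -0.72 did not pass (adjusted p = 0.696). It was at 3.499, 3.21, 2.28 and 1.31 FPKM in HF_PBS 1 to 4 and at 3.57, 3.27, 4.21 and 1.58 in HF_5AzaD 3, 5, 6 and 7. All 8 injected libraries were below chow. The difference was -1.32 in HF_PBS (2.58 ± 0.989 against 6.85 ± 0.764 FPKM, SE 0.308, adjusted p = 0.00859), a call that held when any single library was left out and ran from 0.00405 to 0.0784 over the alternatives. After omission of the 5 libraries, it was -0.93 (adjusted p = 0.0784). In HF_5AzaD the difference was -1.06 (adjusted p = 0.0342, range 0.0158 to 0.157). That call was lost without chow 1 (0.0743), chow 2 (0.0672), chow 3 (0.0728), chow 4 (0.0722), HF_5AzaD 5 (0.0502) or HF_5AzaD 7 (0.120), and without the 5 libraries (-0.74, adjusted p = 0.157).

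Cdh6, a type II cadherin of several tissues and brain circuits, varied most between libraries among the 31 tested members. It was at 13.2, 13.3, 12.5 and 11.5 FPKM in chow 1 to 4 and at 5.77, 13.7, 7.68 and 6.02 in HF 5 to 8. It was at 7.01, 6.37, 4.10 and 3.67 FPKM in HF_PBS 1 to 4 and at 8.25, 1.51, 10.9 and 2.33 in HF_5AzaD 3, 5, 6 and 7. Both injected groups were below all chow libraries, and HF_5AzaD 5 and 7 were far below HF_5AzaD 3 and 6. The difference from chow was -1.42 in HF_5AzaD (SE 0.454, limma adjusted p = 0.0461) and -1.22 in HF_PBS (adjusted p = 0.0566, not past the test). Leaving out chow 1 (adjusted p = 0.0854), chow 2 (0.0946), chow 3 (0.0930), chow 4 (0.0886), HF_5AzaD 5 (0.108) or HF_5AzaD 7 (0.154) ended the call in HF_5AzaD. After omission of the 5 libraries, it was -0.39 (adjusted p = 0.386), and the range over alternatives was 0.0132 to 0.386. Changed filters, quantile normalization and a fit of only the 2 groups also ended the call.

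Cdh11 and Cdh8, nearby type II genes, were lower in HF_5AzaD than in HF. In that comparison 7 of 8 tested deep layer markers were negative as well, with a median of -0.72. Of these markers 2 were called lower, beside 7.64% of all loci. Other lists were mostly negative there too. These were 9 of 9 striatal markers (median -1.06, 1 called lower), 8 of 9 excitatory (-0.61) and 6 of 7 upper layer markers (-0.39, 1 called higher). Some lists went the other way, with 5 of 6 thalamic and 5 of 8 microglial markers positive. So were 6 of 8 markers of leptomeninges, mural cells and choroid plexus. The part of these shifts in the Cdh11 and Cdh8 values was not tested. Cdh11, known from bone and mesenchyme as well as from brain, was at 20.02, 19.9, 9.62 and 17.8 FPKM in HF 5 to 8. It was at 10.5, 5.28, 9.09 and 6.86 FPKM in HF_5AzaD 3, 5, 6 and 7. The groups overlapped only through HF 7, which lay below HF_5AzaD 3. Chow held 7.36, 10.1, 8.30 and 14.4 FPKM and HF_PBS 14.5, 13.9, 9.75 and 11.2 FPKM, with means between those of HF_5AzaD and HF. The difference was -1.03 (7.94 ± 2.33 against 16.8 ± 4.91 FPKM, SE 0.261, limma adjusted p = 0.0229). It was lost without HF 6 (adjusted p = 0.0810), HF 8 (0.0517) or HF_5AzaD 7 (0.0765), and without the 5 libraries (-0.65, adjusted p = 0.233). The adjusted p ran from 0.0109 to 0.233. HF_5AzaD differed from chow by -0.32 (95% interval -0.88 to 0.24). Cdh11 was also among the 3 members of lowest p in the comparisons without calls. HF differed from chow by 0.71 (SE 0.261, adjusted p = 0.682) and HF_5AzaD from HF_PBS by -0.63 (adjusted p = 0.635), and neither passed.

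Cdh8 was at 13.4, 12.5, 9.68 and 15.03 FPKM in HF 5 to 8 and at 7.57, 10.7, 5.25 and 5.31 in HF_5AzaD 3, 5, 6 and 7. Of the HF_5AzaD libraries, HF_5AzaD 5 alone lay above the lowest HF library. Chow ranged from 8.16 to 15.8 FPKM and HF_PBS from 7.14 to 13.8, so both overlapped with HF and with HF_5AzaD. The difference of HF_5AzaD from HF was -0.81 (SE 0.253, limma adjusted p = 0.0454). The call was lost without HF 5 (adjusted p = 0.0816), HF 6 (0.113), HF 8 (0.103), HF_5AzaD 3 (0.0680), HF_5AzaD 6 (0.0928) or HF_5AzaD 7 (0.145). Without the 5 libraries it was -0.85 (adjusted p = 0.102), as large as with them, and the range was 0.0187 to 0.218.

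The other type II cadherins did not pass in any comparison. Cdh19, known from glia of peripheral nerve, was at 1.91, 0.816, 3.08 and 2.23 FPKM in HF_PBS 1 to 4 against 0.906 to 1.301 in HF. The difference of 0.54 did not pass (adjusted p = 0.111), and without HF_PBS 2 it did (adjusted p = 0.00595). The myelin markers summed to 12843 and 13792 FPKM in HF_PBS 3 and 4, and to 5710 and 3443 in HF_PBS 1 and 2. In the fit without those 5 libraries, the Cdh19 difference was 0.07 (adjusted p = 0.887). HF_5AzaD held 0.985 ± 0.248 FPKM of Cdh19 against 2.01 ± 0.936 in HF_PBS, a difference of -0.68 (SE 0.239, adjusted p = 0.586) that did not pass. Cdh10 was at 12.2 ± 1.495 FPKM in chow and at 11.9 ± 2.48 in HF_PBS, a difference of -0.05 (95% interval -0.48 to 0.37). Cdh5, the cadherin of blood vessel endothelium, was at 5.29 ± 0.996 FPKM in chow and at 4.90 ± 1.83 in HF_PBS (difference -0.14, 95% interval -0.67 to 0.39). Cdh9 was at 9.91 FPKM in HF_5AzaD 5 and at 2.57 to 5.65 in the other 15 libraries.

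Type I and atypical cadherins gave 0 calls. Cdh2 was at 25.9 ± 1.66 FPKM in chow, 28.0 ± 2.88 in HF, 27.6 ± 0.565 in HF_PBS and 28.4 ± 5.68 in HF_5AzaD. Its 6 differences ran from -0.01 to 0.11, and its interval in HF_PBS against chow was -0.16 to 0.35. Cdh15, first known from muscle, was at 1.42 to 2.42 FPKM in chow and at 2.48 to 3.36 in HF_PBS. These ranges did not overlap, but the difference of 0.45 did not pass (adjusted p = 0.150). Cdh13 was at 27.9 to 40.2 FPKM in chow, and HF_5AzaD 5 reached 81.5 while the other HF_5AzaD libraries held 24.7 to 33.4. The difference of HF_5AzaD from chow was 0.17 (95% interval -0.43 to 0.78).

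Among delta-1 protocadherins, Pcdh7 fell in HF_PBS. It was at 63.8, 51.8, 64.0 and 61.5 FPKM in chow 1 to 4 and at 36.3, 60.7, 33.1 and 29.9 in HF 5 to 8. In HF_PBS 1 to 4 it was at 47.8, 32.2, 21.1 and 19.3 FPKM, below all chow libraries. In HF_5AzaD 3, 5, 6 and 7 it was at 51.9, 44.4, 44.9 and 22.7 FPKM, which touched the chow range. The difference of HF_PBS from chow was -1.08 (SE 0.300, limma adjusted p = 0.0183). It was lost without HF_PBS 3 (adjusted p = 0.0544) or HF_PBS 4 (0.0672), the libraries with the lowest Pcdh7. After omission of the 5 libraries, it was -0.61 (adjusted p = 0.133, range 0.00610 to 0.133). HF_5AzaD differed from chow by -0.61 (adjusted p = 0.158).

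Pcdh9, the second delta-1 member, was at 44.0 ± 6.11 FPKM in chow and at 30.9 ± 5.93 in HF. All HF libraries (23.1 to 35.6 FPKM) were below all chow libraries (37.9 to 51.0), yet the difference of -0.51 did not pass (adjusted p = 0.696). Pcdh11x, on the X chromosome, was at 2.72 ± 1.21 FPKM in chow, 5.26 ± 2.47 in HF, 3.72 ± 0.511 in HF_PBS and 2.53 ± 0.654 in HF_5AzaD. HF differed from chow by 0.78 (SE 0.312, adjusted p = 0.696), which did not pass. The difference between HF_5AzaD and HF was -0.83 (adjusted p = 0.0839), past the test only without HF 7 (adjusted p = 0.0142, range over alternatives 0.0142 to 0.392). HF_5AzaD (1.77 to 3.26 FPKM) lay below HF_PBS (3.40 to 4.49) in every library, with a difference of -0.50 and an adjusted p of 0.787.

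The 4 delta-2 protocadherins had positive differences in HF against chow, with a median of 0.50, and 0 of them passed. Pcdh17, which acts in presynaptic organisation, was at 3.71, 5.68, 3.92 and 11.6 FPKM in chow 1 to 4. In HF 5 to 8 it was at 15.7, 11.96, 6.62 and 15.8 FPKM. HF 7 lay within the chow range and the other HF libraries above it. The difference was 1.02 (SE 0.337, 95% interval 0.30 to 1.74) with an adjusted p of 0.682. Pcdh8, an activity-induced protocadherin, was at 21.9 ± 4.44 FPKM in chow and at 28.1 ± 7.51 in HF. HF_5AzaD 5 reached 54.6 FPKM, against 16.8 to 34.0 in the other 15 libraries. Pcdh19, whose human counterpart is an epilepsy gene, was at 3.99 ± 1.08 FPKM in chow, 6.73 ± 1.92 in HF and 13.8 in HF_5AzaD 5.

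Pcdh15 was the only member that passed as higher in any of the 6 comparisons. It was at 1.04, 0.990, 0.985 and 1.18 FPKM in chow 1 to 4 and at 2.03, 1.34, 1.21 and 1.57 in HF 5 to 8. It was at 1.64, 1.57, 2.69 and 1.93 FPKM in HF_PBS 1 to 4 and at 1.83, 2.16, 1.59 and 3.16 in HF_5AzaD 3, 5, 6 and 7. Every chow library was below every other library. The difference from chow was 0.65 in HF_PBS (1.96 ± 0.513 against 1.05 ± 0.0922 FPKM, adjusted p = 0.0225) and 0.76 in HF_5AzaD (2.18 ± 0.691 FPKM, adjusted p = 0.0213). In HF it was 0.38 (adjusted p = 0.723).

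The Pcdh15 call in HF_PBS was lost without chow 2 (adjusted p = 0.0532), chow 3 (0.0543), HF_PBS 3 (0.0697) or HF_PBS 4 (0.0591). In HF_5AzaD it was lost without chow 2 (0.0537), chow 3 (0.0562) or HF_5AzaD 7 (0.0751). After omission of the 5 libraries, the differences were 0.44 (adjusted p = 0.145) and 0.51 (adjusted p = 0.126). The ranges over alternatives were 0.00947 to 0.145 and 0.00558 to 0.126.

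Pcdh20, a non-clustered protocadherin, was at 20.2, 15.9, 17.6 and 12.7 FPKM in chow 1 to 4 and at 12.7, 10.4, 8.21 and 6.05 in HF_PBS 1 to 4. The groups met at 12.7 FPKM. HF ranged from 9.70 to 17.3 FPKM and HF_5AzaD from 5.84 to 13.4. The difference of HF_PBS from chow was -0.83 (SE 0.273, limma adjusted p = 0.0360). The call was lost without chow 1 (adjusted p = 0.0909), chow 2 (0.0664), chow 3 (0.0797), HF_PBS 3 (0.0811) or HF_PBS 4 (0.123). Without the 5 libraries it was -0.49 (adjusted p = 0.188, range 0.0169 to 0.188).

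**Figure D3:**
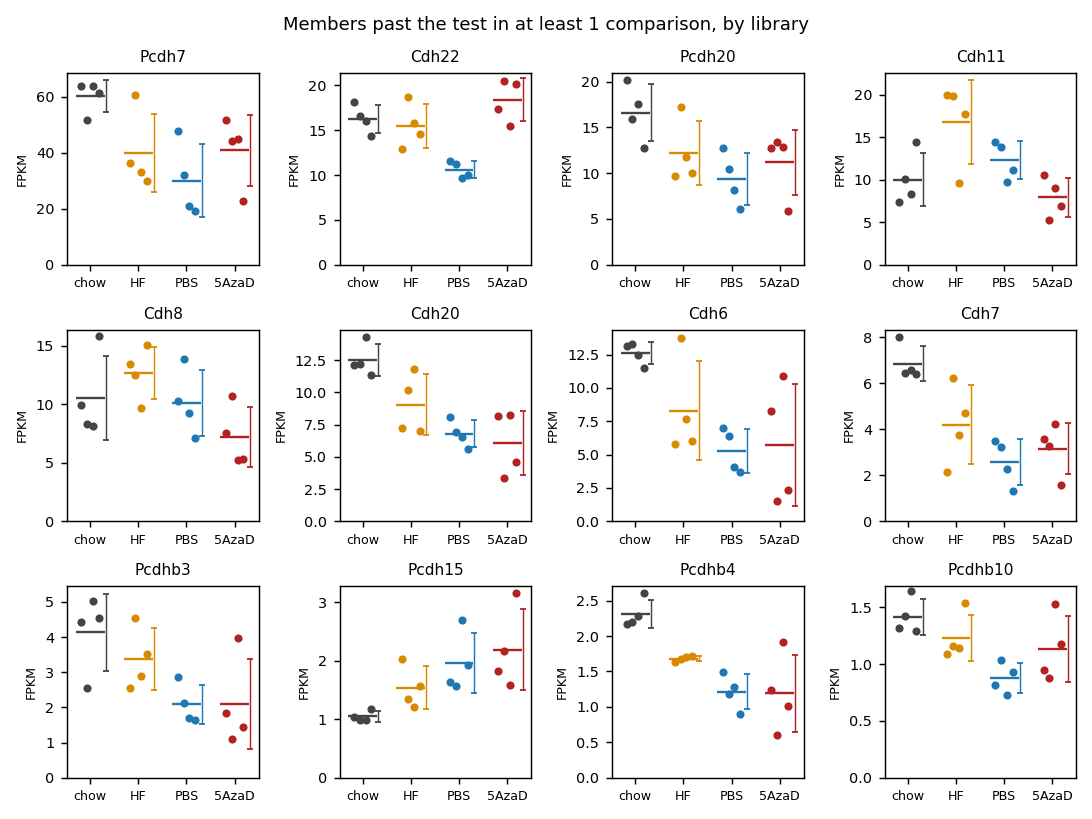
Level in every library, in FPKM, of the members that passed in at least 1 comparison, by group (PBS and 5AzaD stand for HF_PBS and HF_5AzaD), with 1 point per library, a line at the group mean and a bar of 1 SD to each side. Cdh22 is lowest in all 4 HF_PBS libraries, and Pcdh15 is lowest in all 4 chow libraries.

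Clustered protocadherins had lower means in both injected groups than in chow at all 9 tested loci. The median difference was -0.42 in HF_PBS (3 called) and -0.24 in HF_5AzaD (2 called), and the chow libraries are common to both. Over all loci the medians were 0.01 and 0.00, 7252 and 7353 of 14824 were negative, and 15.7% and 9.11% were called lower. In HF, 7 of 9 were negative, with a median of -0.16 and 0 called. The group mean was highest in chow for 7 of the 9 loci and lowest in HF_PBS for 6. These loci lie side by side and share sequence, so they are not independent of each other.

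Pcdhb4 was at 2.17, 2.20, 2.28 and 2.60 FPKM in chow 1 to 4 and at 1.64, 1.67, 1.70 and 1.72 in HF 5 to 8. It was at 1.49, 1.18, 1.29 and 0.898 FPKM in HF_PBS 1 to 4 and at 1.24, 0.608, 1.91 and 1.01 in HF_5AzaD 3, 5, 6 and 7. The chow libraries were above all others, and HF_PBS was below HF in every library. The difference from chow was -0.72 in HF_PBS (adjusted p = 0.0144) and -0.79 in HF_5AzaD (adjusted p = 0.0192). The first was lost without HF_PBS 4 (adjusted p = 0.0538), the second without chow 3 (0.0511), chow 4 (0.0574) or HF_5AzaD 7 (0.0671). In the fit without those 5 libraries, they were -0.62 (adjusted p = 0.0522) and -0.46 (adjusted p = 0.130). The ranges were 0.00525 to 0.0538 and 0.00575 to 0.130.

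Pcdhb3 was at 4.42, 2.54, 5.01 and 4.55 FPKM in chow 1 to 4, at 2.85, 2.13, 1.70 and 1.65 in HF_PBS 1 to 4 and at 1.84, 1.11, 3.96 and 1.45 in HF_5AzaD 3, 5, 6 and 7. Chow 2 lay inside the range of both injected groups. The difference from chow was -0.83 in HF_PBS (adjusted p = 0.0428) and -0.92 in HF_5AzaD (adjusted p = 0.0434). In HF_PBS the call was lost without chow 1 (0.0889), chow 3 (0.110), chow 4 (0.0997), HF_PBS 2 (0.0590), HF_PBS 3 (0.0997) or HF_PBS 4 (0.117). In HF_5AzaD it was lost without chow 1 (0.0874), chow 3 (0.111), chow 4 (0.104), HF_5AzaD 3 (0.0678), HF_5AzaD 5 (0.102) or HF_5AzaD 7 (0.136). After omission of the 5 libraries, the values were -0.61 (adjusted p = 0.249) and -0.49 (adjusted p = 0.377). The ranges were 0.0261 to 0.249 and 0.00885 to 0.377. Changed filters and sample weights also ended both calls. So did median centring and the replicate block in HF_PBS, and a fit of only the 2 groups in HF_5AzaD.

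Pcdhb10 was at 1.31, 1.42, 1.64 and 1.29 FPKM in chow 1 to 4 and at 0.815, 1.03, 0.725 and 0.934 in HF_PBS 1 to 4. The groups did not overlap, and HF (1.08 to 1.53 FPKM) was also above HF_PBS in every library. The difference from chow was -0.48 (adjusted p = 0.0303). It was lost without chow 2 (0.0656), chow 3 (0.0865), HF_PBS 1 (0.0511), HF_PBS 3 (0.0781) or HF_PBS 4 (0.0630). After omission of the 5 libraries, it was -0.43 (adjusted p = 0.151, range 0.0178 to 0.151).

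The merged gamma locus was at 152 ± 5.23 FPKM in chow, 155 ± 8.80 in HF, 133 ± 11.5 in HF_PBS and 145 ± 15.1 in HF_5AzaD. HF_PBS (122 to 145 FPKM) lay just below HF (146 to 166), with a difference of -0.23 that did not pass (adjusted p = 0.0743). It passed after quantile normalization (-0.32, adjusted p = 0.0386, range 0.0386 to 0.198). The alpha locus was at 40.4 to 42.4 FPKM in chow and at 21.8 to 39.1 in HF_PBS, apart from each other with a difference of -0.41 (adjusted p = 0.0697). HF_PBS 3 was the lowest library for both loci.

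Of the 5 lesser loci, 3 were tested. A separate Pcdhga9 locus was at 1.57 to 2.08 FPKM in chow and 1.65 to 2.12 in HF, and at 0.827 to 1.07 in HF_PBS. Every HF_PBS library was below every uninjected library. It fell by 0.61 against chow (limma adjusted p = 0.0136) and by 0.66 against HF (adjusted p = 0.0103). Neither call was lost with a single library left out. Without the 5 libraries of low excitatory markers the values were -0.52 (adjusted p = 0.0614) and -0.51 (adjusted p = 0.0791). In HF_5AzaD it was at 1.00, 1.55, 0.862 and 0.719 FPKM, also called lower than in chow (-0.58, adjusted p = 0.0279) and in HF (-0.63, adjusted p = 0.0214), and both of these calls were lost without HF_5AzaD 7 (adjusted p = 0.0990 and 0.0769). They were lost without the 5 libraries as well, at -0.65 against chow (adjusted p = 0.0533) and -0.65 against HF (adjusted p = 0.0520). Other libraries whose omission ended the call against chow were chow 1 (0.0699), chow 2 (0.0584), chow 3 (0.0650) and chow 4 (0.0558), and for the call against HF they were HF 6 (0.0654) and HF 8 (0.0524). The merged gamma locus, which also lists Pcdhga9, was not called in any comparison of the reported fit.

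A separate Pcdhb9 locus fell by 0.71 in HF_PBS against chow (2.00 against 3.54 FPKM, adjusted p = 0.0137), and without the 5 libraries its difference was -0.47 (adjusted p = 0.0947). The kept locus of that symbol, merged with Pcdhb6, was at 4.18 FPKM in chow and 4.00 in HF_PBS and was not called. The lesser Pcdh17 locus did not pass in any of the 6 comparisons.

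Library HF_5AzaD 5 was the highest of all 16 for 8 of the 31 members and the lowest for 7. Its Cdh13, Pcdh8, Pcdh19 and Cdh9 were the highest, and its Cdh6, Cdh11 and Cdh20 the lowest. HF_PBS 3 was the highest for 2 and the lowest for 6 members. Of the 31, Cdh6 had the widest range over libraries, with a ratio of 9.11 between HF 6 and HF_5AzaD 5, and the gamma locus a narrow one, with 1.37.

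**Figure D4:**
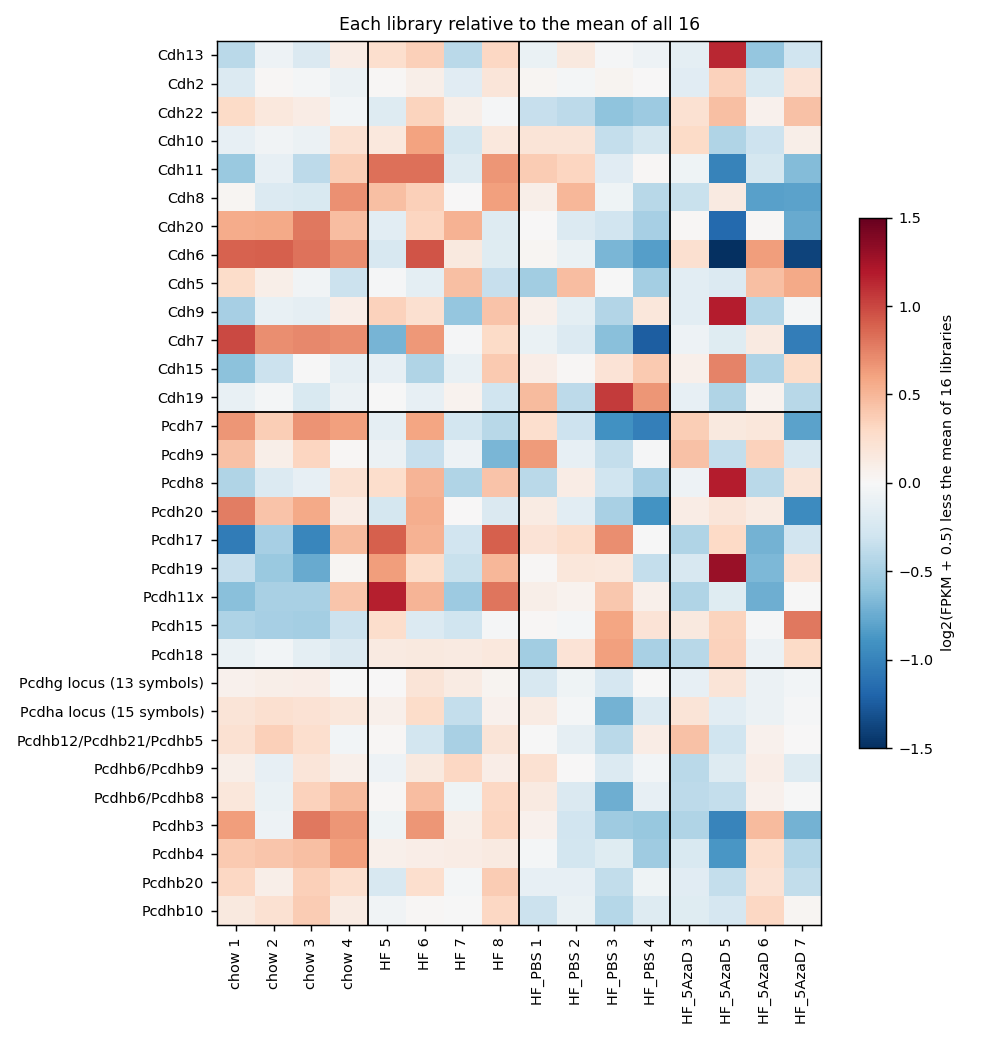
Each tested member in each library, as its log2(FPKM + 0.5) less its mean over the 16 libraries, shown as colour, and values past the ends of the colour scale take its end colour. HF_5AzaD 5 stands out in both directions, with 8 members at their highest and 7 at their lowest.

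The partners of these adhesion molecules were read from lists of their own, given as counts with the genes of lowest p. Of 10 tested catenins and adaptors, 3 rose and 0 fell in HF_PBS against chow, where 12.4% of all loci were called higher and 15.7% lower. Jup, which encodes plakoglobin, was at 35.9 against 21.9 FPKM (0.68, adjusted p = 0.00535) and passed in all 20 alternatives (adjusted p 0.00141 to 0.0394), at 0.51 without the 5 libraries. Mllt4, which encodes afadin, rose by 0.50 (adjusted p = 0.00734), with 0.40 (adjusted p = 0.0501) without the 5 libraries. Ctnnb1, beta-catenin, the link between cadherins and alpha-catenin, fell in HF_PBS against HF (68.9 against 101 FPKM, -0.55, adjusted p = 0.0117). With those 5 libraries left out that difference was -0.52 (adjusted p = 0.0811). In HF_5AzaD it was at 67.4 FPKM (-0.59 against HF, adjusted p = 0.0165), a call lost without HF 6 (adjusted p = 0.0601, range 0.00943 to 0.219) and still past the test without the 5 libraries (-0.76). That call was also lost with only the 2 groups fitted, with the replicate block and with no block on the same samples. Both comparisons of Ctnnb1 share the HF libraries.

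Of 8 tested genes of cadherin cleavage, 2 rose and 2 fell in HF_PBS against chow. Of 9 tested other members of the cadherin superfamily, 5 fell and 0 rose in HF_PBS against chow (all loci 15.7% lower and 12.4% higher), and the list's median was -0.63, beside 0.01 for all loci. Celsr2, an adhesion receptor of the flamingo kind, was at 19.7 against 41.0 FPKM (-1.08, adjusted p = 0.00469). The calsyntenins, postsynaptic relatives of the cadherins, fell as well: Clstn3 by 0.63 (adjusted p = 0.00554), Clstn2 by 1.84 (adjusted p = 0.00630) and Clstn1 by 1.05 (adjusted p = 0.0125). In the fit without those 5 libraries, Celsr2 was at -0.76 (adjusted p = 0.0718), Clstn3 at -0.45 (0.0572) and Clstn2 at -1.14 (0.0549), while Clstn1, at -0.60 in that fit, passed in all 20 alternatives (adjusted p 0.00412 to 0.0450).

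Of 7 WAVE complex genes, 1 rose and 1 fell in HF_PBS against chow. Abi2, the one that rose, was at 90.5 against 58.8 FPKM (0.60, adjusted p = 0.0115) and passed in all 20 alternatives (adjusted p 0.00326 to 0.0460), at 0.73 without the 5 libraries. Of 9 regulators of clustered protocadherin promoters, 2 rose and 1 fell. That one was Dnmt3a, a DNA methyltransferase (5.39 against 7.09 FPKM, -0.37, adjusted p = 0.00901), with -0.33 (adjusted p = 0.0888) without the 5 libraries. Of 12 nectins and other adhesion partners, 4 fell and 0 rose in the same comparison. These counts stand beside 15.7% of all loci called lower and 12.4% higher, and for lists this short no difference from that share was tested. Nlgn2, a neuroligin of inhibitory synapses, had the lowest p (47.2 against 73.2 FPKM, -0.64, adjusted p = 0.00394), and -0.47 (adjusted p = 0.0552) without the 5 libraries.

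In HF_5AzaD against chow, 2 catenins and adaptors rose, 2 cleavage genes fell, 1 other superfamily member rose and 3 fell, 1 WAVE gene rose, and 1 regulator and 1 nectin or other partner fell. Over all loci 7.18% were called higher and 9.11% lower there. The omission of HF_5AzaD 7 alone ended every one of these calls (Abi2 adjusted p = 0.0716). The share of all loci still called in that fit is not set beside this. It therefore does not show that these lists depend on HF_5AzaD 7 more than other loci do. Abi2 was also lost without chow 2, 3 or 4 (adjusted p 0.0536 to 0.0660). In HF_PBS against HF, 1 catenin or adaptor rose and 1 fell, 1 cleavage gene rose and 2 fell, and 0 other superfamily members rose and 4 fell. In the same comparison 1 WAVE gene rose and 1 fell, 1 regulator rose and 2 fell, and 0 nectins and other partners rose and 3 fell, beside 10.7% of all loci higher and 13.2% lower. In HF_5AzaD against HF, 0 catenins and adaptors rose and 1 fell, 1 cleavage gene rose and 2 fell, 1 WAVE gene rose and 0 fell, and each of the other 3 lists had 0 higher and 1 lower, beside 6.61% of all loci higher and 7.64% lower. The diet alone and the comparison of the injected groups gave 0 calls in all 6 lists.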

How the data were processed

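Poly-A RNA of frontal cortex was sequenced in 16 libraries, 4 per group. The authors deposited FPKM for each merged locus, with a status per value. TopHat, TopHat2, Bowtie, Bowtie2, Cufflinks, Cuffdiff and build rn5 are named in the submitters' processing notes, without versions. No source used here states the strand, and reads of antisense or overlapping genes cannot be separated. Left out were 161 loci whose status was not OK in some library, 0 of them members.

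The FPKM values, as deposited, were put on the scale log2(FPKM + 0.5). Loci averaging 1 FPKM or more (14824) entered 1 limma fit (limma 3.58.1, R 4.3.3, eBayes with a trend) with 4 group means, 12 residual degrees of freedom and 6 contrasts. Benjamini-Hochberg adjustment ran over all of these loci, with a threshold of 0.05. Python 3.11.15 was used for the rest (numpy 2.4.6; pandas 2.3.3; matplotlib 3.10.9). The fit was tested on simulated data. Promoters are from RefSeq (GRCr8), matched by symbol for 24 members, 20 of them tested.

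Members were named with statistics where past the threshold or among the 3 of lowest p in a comparison, with levels where among the 5 of highest mean, and other lists by called genes of lowest p, at most 4. A gene of the cleavage list is not reported here. Members and lists were chosen with earlier results of these data known. Alternatives varied the pseudocount, filter, scaling, sample weights, samples fitted and a replicate block. Those chosen after seeing the data kept loci of any status, left out 5 libraries, or dropped the block on the same samples.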

Additional observations from a re-analysis of the deposited data

Results flagged for a closer look

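Of 124 sets of 4 libraries (31 members in 4 groups), 8 held a library far from the other 3 by Dixon's test at its 95% critical value, where chance gives about 1 in 20. In chow these were Cdh10 in library 4 (14.4 FPKM against 11.2 to 11.7), Cdh7 in library 1 (7.99 against 6.41 to 6.57) and Pcdh11x in library 4 (4.52 against 1.94 to 2.20). In HF it was Pcdhb10 in library 8 (1.53 FPKM against 1.08 to 1.16), and in HF_PBS it was Pcdh11x in library 3 (4.49 against 3.40 to 3.52). In HF_5AzaD, library 5 stood apart for Cdh13 (81.5 FPKM against 24.7 to 33.4) and for Cdh9 (9.91 against 2.91 to 3.98), and library 7 for Pcdh20 (5.84 against 12.7 to 13.4). The summed FPKM of the cortical excitatory markers was 3005 in HF_5AzaD 5 and 2869 in HF_5AzaD 7, against 4553 and 5292 in the other HF_5AzaD libraries, and the part of this in these values was not tested.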

How the results depend on the processing

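The 0 calls of HF against chow and of HF_5AzaD against HF_PBS stayed at 0 in all 18 alternatives run for each. The single differences recomputed were those called, or those of the 3 members of lowest p in a comparison. Of these, 0 changed sign in any alternative, which a choice by low p in the same data makes likely. Besides left-out libraries, a fit without a filter ended the calls of Pcdh20 in HF_PBS and Cdh7 in HF_5AzaD, each against chow. The replicate block ended those of Pcdhb10 and Pcdh15 in HF_PBS against chow. Cdh11 and Cdh8 in HF_5AzaD against HF were lost with only the 2 groups fitted or with the block. Cdh8 was also lost with changed filters or sample weights. Lower members in HF_5AzaD against HF, 2 in the reported fit, numbered 1 with a filter at 0.1 FPKM, without a filter and with array weights, and 0 when only the 2 groups were fitted, with a replicate block, with no block on the same samples and without the 5 libraries of low excitatory markers. Lower members in HF_5AzaD against chow, 5 in the reported fit, numbered 3 without a filter and 3 when only 2 groups were fitted. Lower members in HF_PBS against HF, 1 in the reported fit, numbered 2 after quantile normalization. The higher member in HF_PBS against chow was lost (0) with a replicate block. The F test gave 12 members with array weights, against 6. Without the 5 libraries, HF_PBS against chow held 0 higher and 1 lower, HF_5AzaD against chow 0 and 0, HF_PBS against HF 0 lower, HF_5AzaD against HF 0 lower and the F test 0.

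With single libraries left out, HF_PBS against chow ranged from 0 to 2 higher and from 2 to 9 lower members, and HF_5AzaD against chow from 0 to 1 higher and from 0 to 6 lower. HF_PBS against HF ranged from 0 to 1 higher and stayed at 1 lower, HF_5AzaD against HF ranged from 0 to 4 lower, and the F test from 2 to 8. Lower members in HF_PBS against chow (8) numbered 4 without chow 3, 4 without HF_PBS 3 and 2 without HF_PBS 4. Its higher member was lost without chow 2, chow 3, HF_PBS 3 or HF_PBS 4, and 2 were higher without chow 4 or HF_PBS 2. Lower members in HF_5AzaD against chow (5) numbered 2 without chow 1, 3 without chow 2, 1 without chow 3 or chow 4, 2 without HF_5AzaD 5 and 0 without HF_5AzaD 7, and the higher member was lost without chow 2, chow 3 or HF_5AzaD 7. Lower members in HF_5AzaD against HF (2) numbered 1 without HF 5 or HF_5AzaD 3, 0 without HF 6, HF 8 or HF_5AzaD 7, and 4 without HF 7. In HF_PBS against HF 1 was higher without HF_PBS 2. The F test gave 3 without chow 1 and 2 without chow 3. The cause of these changes was not tested, and fits with libraries left out hold fewer samples. The share of all loci called in each alternative is not set beside the member counts of this section. These counts therefore do not show that members depend on single libraries or settings more than other loci do. Same-numbered libraries did not deviate together. Correlations were -0.164 to 0.0236 for HF_PBS and chow, with 0 of 4 best matched by their own number. For HF_5AzaD and HF they were -0.107 to 0.0641, with 0 of 3 so matched. Whether same-numbered samples share more than a number was not tested. With the replicate block HF_PBS against chow held 0 higher and 7 lower members, against 1 and 10 in the same samples with no block. Quantile normalization and median centring moved the median of all loci by less than 0.1 in every comparison. The relative depth of chow 1, HF 5, HF_PBS 1 and HF_5AzaD 3 rests on 14 to 39 loci.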
